A study of Homo sapiens with 4 samples.

Results

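The 10 chemokine genes described here were measured in A549 and HCC827, established human lung adenocarcinoma (LAD) cell lines, with and without myr-AKT1, an AKT1 kept at the membrane and constitutively active by a myristoylation signal. They are CXCL1, CXCL2, CXCL3, CXCL5, CXCL6, CXCL8, CXCL16, CCL2, CCL5 and CCL20, chosen by name as inflammatory chemokines and found by identifier as 10 of the 60558 genes in each library. There are 4 strand-specific libraries, A549-vector and A549-myr-AKT1 for one line and HCC827-vector and HCC827-myr-AKT1 for the other, with 1 library per condition, so a difference within a line had no replicate check and carries no p-value. Vector cells of the same line were the controls, and nothing in the sources used here says whether a culture was 1 clone or a pool.

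Chemokines are small secreted proteins that draw leukocytes along a concentration gradient by binding G protein-coupled receptors. CXCL1, CXCL2, CXCL3, CXCL5, CXCL6 and CXCL8 share the ELR residues (glutamate, leucine, arginine) before the first cysteines, bind CXCR2, attract neutrophils and promote vessel growth. CXCL16 is made as a membrane protein that binds CXCR6 and is released by the proteases ADAM10 and ADAM17, whereas CCL2 draws monocytes through CCR2, CCL5 draws T cells and monocytes, and CCL20 draws CCR6-bearing lymphocytes and dendritic cells. In epithelial cells many of these genes are switched on by IL-1 and TNF through NF-κB, which binds short κB sites in their promoters.

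The promoters are shown first. The 6 ELR genes among the 10 lie in 1 cluster and share a κB-like stretch at nearly the same place. Their reads in these cells nonetheless differed widely. RefSeq promoters (GRCh38.p14) were at hand for 7 of the 10 genes, not for CXCL16, CCL2 and CCL5. Each line gives the 100 bases from position -140 to -41, counted from the RefSeq start of the gene and read 5′ to 3′ on the gene's strand, with the κB-like match in capitals.
CXCL1: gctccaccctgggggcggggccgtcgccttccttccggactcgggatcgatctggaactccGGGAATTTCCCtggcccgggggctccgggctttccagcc
CXCL2: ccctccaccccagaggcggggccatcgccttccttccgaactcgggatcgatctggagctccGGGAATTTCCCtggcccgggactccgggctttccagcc
CXCL3: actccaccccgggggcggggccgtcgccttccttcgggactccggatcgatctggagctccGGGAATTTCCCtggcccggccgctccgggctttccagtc
CXCL5: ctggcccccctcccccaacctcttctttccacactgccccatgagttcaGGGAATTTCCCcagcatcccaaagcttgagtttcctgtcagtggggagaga
CXCL6: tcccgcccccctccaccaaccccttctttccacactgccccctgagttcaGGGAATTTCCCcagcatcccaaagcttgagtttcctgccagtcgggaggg
CXCL8: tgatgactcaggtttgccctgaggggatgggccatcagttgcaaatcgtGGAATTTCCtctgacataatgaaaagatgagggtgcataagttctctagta
CCL20: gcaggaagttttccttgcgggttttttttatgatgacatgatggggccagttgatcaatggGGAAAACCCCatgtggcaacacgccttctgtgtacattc

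These windows lie at chr4:73869253-73869352 (plus strand) for CXCL1, chr4:74099236-74099335 (minus strand) for CXCL2, chr4:74038730-74038829 (minus strand) for CXCL3 and chr4:73998718-73998817 (minus strand) for CXCL5. The other three are at chr4:73836538-73836637 (plus strand) for CXCL6, chr4:73740429-73740528 (plus strand) for CXCL8 and chr2:227813702-227813801 (plus strand) for CCL20. The 9 letters GGAATTTCC were chosen as a motif after the promoters had been read. They occurred in the promoters of the 6 ELR genes among the 10 and not in that of CCL20, against 0.461% of 35116 RefSeq promoters. These motif searches covered the whole promoter as the table gives it, from 250 bases before to 50 bases after the start, in the 7 genes and in all others. The wider NF-κB consensus, searched on both strands, matched 6 of the 7 promoters, with CXCL8 as the one without a match, and 11.3% of all promoters. In CXCL1 the 9 letters began at position -78, in CXCL2 at -77, in CXCL3 at -78, in CXCL5 at -90, in CXCL6 at -89 and in CXCL8 at -91. Aligned without gaps, the windows of CXCL1 and CXCL3 were identical at 92.0% of positions, those of CXCL1 and CXCL2 at 81.8%, and those of CXCL5 and CXCL6 at 91.9%. CXCL5, the chemokine with the most reads, and CXCL6, which had 6 reads in the 4 libraries together, thus have nearly the same bases just upstream of the start.

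The AP-1 letters TGANTCA were found in the CXCL8 promoter alone, at position -137, and in 7.71% of all promoters. The STAT letters TTCNNNGAA occurred in CXCL5 and CXCL6, where they overlap the κB match, and in 7.66% of promoters. The C/EBP letters TTNNGNAA occurred only in CXCL2 among the 7, against 36.8% of all promoters, and the interferon response element core GAAANNGAA in CXCL2 and CXCL3, against 8.11%. The C/EBP match of CXCL2 and the interferon element matches lie upstream of the printed bases. A match describes letters in a promoter and shows no binding, and a missing match does not show that a site is absent.

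Each deposited value is the count of a gene over a library-wide size factor, so the reads could be recovered. They summed to between 16322183 in HCC827-myr-AKT1 and 33530317 in A549-vector. The lines fitted their labels, with CDKN2A, which is deleted in A549, at 0 reads in both A549 libraries and EGFR, which is amplified in HCC827, at 193419 reads in HCC827-vector and 54377 in HCC827-myr-AKT1, a log2 fold change of -1.17, against 8588 and 7383 in A549. AKT1 reads, which include any from the transgene that map to the gene, were higher with myr-AKT1 by a log2 fold change of 0.57 in A549 and 1.14 in HCC827. All 6 epithelial markers had reads in every library. Of 9 leukocyte markers 6 had 10 reads or fewer in every library, among them CD3E at 0 in all 4 and PTPRC, the pan-leukocyte gene, at 0 to 7 reads. ITGAM had 48 and 105 reads in A549, CSF1R had 72 and 46 in HCC827, and CD14 had 40 reads in A549-vector and 685 in A549-myr-AKT1, and 20 and 68 in those of HCC827. The summed level of the epithelial markers was 6629 and 5845 CPM (reads scaled to a common total of recovered reads per library) in the vector and myr-AKT1 libraries of A549, and 7487 and 4263 in those of HCC827. The summed level of the 5 fibroblast markers was 3.82 CPM in A549-vector and 40.3 CPM in A549-myr-AKT1 (COL1A1 88 and 668 reads, LUM 26 and 304). It was 2.42 and 9.19 CPM in HCC827, and that of the 4 endothelial markers was 0.507 and 4.96 CPM in A549 and 3.55 and 6.74 CPM in HCC827. The part of these shifts in the chemokine values was not tested.

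The chemokine transcripts were higher in the myr-AKT1 library than in the vector library of the same line for each gene that could be compared. The fold was larger in HCC827 than in A549, from 1.41 times for CCL5 to 11.2 times for CXCL5. The reads of the 10 genes summed to 854 CPM in A549-vector and 1411 in A549-myr-AKT1, which is 1.65-fold. In HCC827 the sum went from 194 to 2989 CPM, which is 15.4-fold. CXCL5 made up most of these sums, and without it the folds were 2.28 in A549 and 12.3 in HCC827. More cells with the transcripts and more transcript per cell cannot be told apart in RNA from whole cultures.

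**Figure D1:**
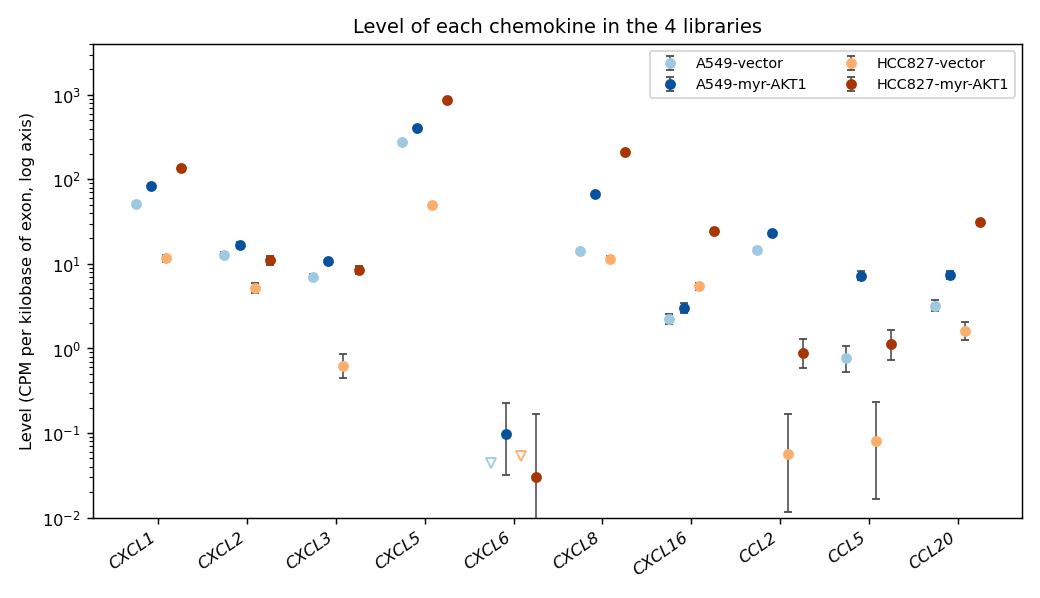
Level of each chemokine in the 4 libraries, in CPM per kilobase of merged exons on a log axis, with 95% counting intervals. Open triangles mark the 3-read floor of libraries with 0 reads, and the interval of CXCL6 in HCC827-myr-AKT1 runs below the axis. CXCL5 is the highest gene in every library at 49.8 to 862, and CXCL6 the lowest.

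Per kilobase of exon, CXCL5 was the highest of the 10 in every library, at 276 CPM in A549-vector, 410 in A549-myr-AKT1, 49.8 in HCC827-vector and 862 in HCC827-myr-AKT1. It took 57.9% to 72.3% of the summed level of the 10 genes. CXCL1 was second in all libraries but HCC827-myr-AKT1, where CXCL8 stood above it at 211 against 138 CPM per kilobase. The 6 ELR genes together held 91.7% to 95.5% of the summed per-kilobase level, so the neutrophil-attracting ligands made up most of the signal in both lines with either construct. CCL2 followed CXCL5 and CXCL1 in A549-vector at 14.5, where its counting interval overlapped that of CXCL8 at 14.3, and was lowest but for CXCL6 in both HCC827 libraries at 0.0568 and 0.887. CXCL16 took the opposite places, with 7 or 8 of the other genes above it in A549 and 3 or 4 in HCC827. Other neighbours whose intervals overlapped were CXCL8 and CXCL2 in A549-vector, CCL20 and CCL5 in A549-myr-AKT1, CXCL1 with CXCL8 and CXCL16 with CXCL2 in HCC827-vector, CCL5 with CCL2 in both HCC827 libraries, and CCL2 with CXCL6 in HCC827-vector. Some of these places depend on the length used. Per kilobase of the longest transcript, CXCL8 at 18.4 and CXCL2 at 15.8 stood above CCL2 at 14.7 in A549-vector, and CXCL8 at 14.8 above CXCL1 at 13.6 in HCC827-vector. CCL20 moved most, to 6.08 and 14.1 in A549 and 3.05 and 59.0 in HCC827, from 3.20, 7.45, 1.61 and 31.1 per kilobase of merged exons. CXCL5 stayed the highest in all 4 libraries.

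The question of the design is what active AKT1 changes in each line. A gene was compared within a line when its mean normalized count over the pair was at least 10, and it counted as past the fold when its log2 fold change, myr-AKT1 over vector, was above 2 or below -2, the threshold of the study's own list. In A549, 9 of the 10 chemokines could be compared and 2 were past the fold upward, CXCL8 and CCL5, against 5.79% of the 18750 genes compared. None was past it downward, against 2.81% of genes. The median log2 fold change of the 9 was 0.67, and that of all genes was -0.03. In HCC827, the same 9 could be compared and 8 were past the fold upward, all but CXCL2, against 4.63% of 17358 genes. None was past it downward, against 3.08%. Of the 8, CCL2 and CCL5 had a normalized count of 2.38 in HCC827-vector and reached the minimum mean only through HCC827-myr-AKT1. With so low a control value, meeting the minimum by itself put them past the fold. At a minimum mean of 50, 6 were past it. The median of the 9 was 3.72 in HCC827, the value of CCL5 itself, where that of all genes was -0.04. The 95% counting interval of the log2 fold change lay above 0 for all 9 in both lines, which held for 33.3% of genes in A549 and 33.5% in HCC827. Counting intervals take no account of the variation between cultures.

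**Figure D2:**
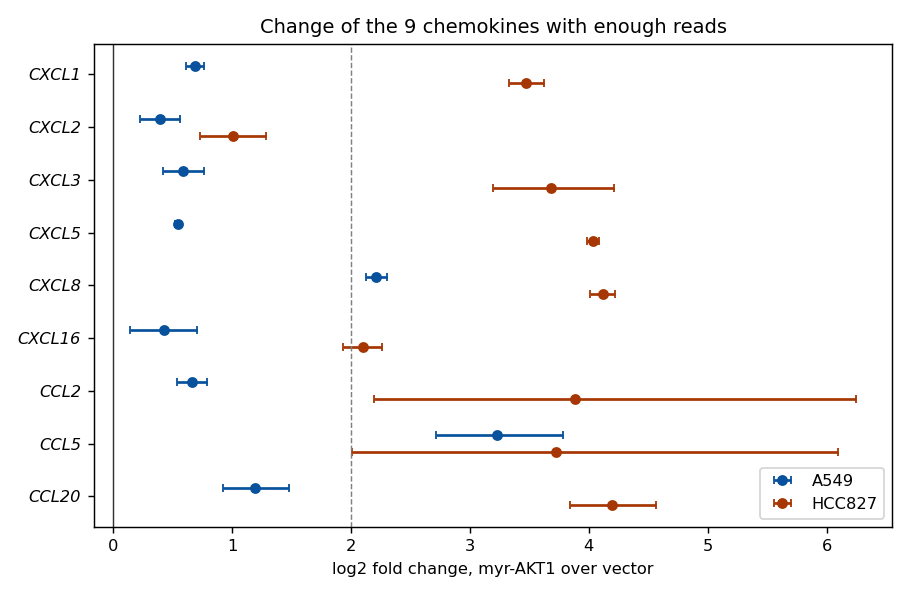
Log2 fold change of the 9 chemokines compared, myr-AKT1 over vector, in A549 (blue) and HCC827 (brown), with 95% counting intervals. The solid line is no change and the dashed line the fold threshold of 2. In A549 only CXCL8 at 2.21 and CCL5 at 3.23 lie past the dashed line, and in HCC827 only CXCL2 at 1.01 lies short of it.

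CXCL8, the prototype neutrophil attractant, was past the fold in both lines. It had 37.1 CPM in A549-vector and 175 in A549-myr-AKT1 (1243 and 4400 reads), and 29.8 in HCC827-vector and 546 in HCC827-myr-AKT1 (814 and 8912 reads). The vector libraries were thus close and the HCC827-myr-AKT1 library stood far above the other three. Its log2 fold change was 2.21 in A549 (95% counting interval 2.12 to 2.31) and 4.12 in HCC827 (4.01 to 4.22).

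CXCL5, an epithelial neutrophil attractant, started high in A549 and low in HCC827. It had 673 and 999 CPM in the vector and myr-AKT1 libraries of A549 (22577 and 25154 reads), against 121 and 2100.3 in those of HCC827 (3311 and 34282 reads). The log2 fold change was 0.55 in A549 (0.52 to 0.57) and 4.04 in HCC827 (3.98 to 4.09), and the latter was exceeded by 0.772% of genes. The order of the lines was turned over, since HCC827-vector held less CXCL5 than either A549 library and HCC827-myr-AKT1 more than both.

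CXCL1, a growth-related chemokine of the same class, followed that course. It had 70.0 and 115 CPM in A549 and 16 and 187 in HCC827 (2347, 2885, 436 and 3058 reads). Its log2 fold change was 0.69 (0.61 to 0.77) in A549 and 3.47 (3.33 to 3.62) in HCC827. CXCL3 and CXCL2 are its closest relatives in sequence and did not move alike in HCC827. CXCL3 had 15.5 and 23.7 CPM in A549 and 1.39 and 18.9 in HCC827 (521, 598, 38 and 308 reads), and its log2 fold changes were 0.59 (0.42 to 0.76) in A549 and 3.68 (3.19 to 4.21) in HCC827. CXCL2 had 17.7 and 23.6 CPM in A549 and 7.29 and 15.5 in HCC827 (592, 594, 199 and 253 reads). Its log2 fold change was 0.40 (0.23 to 0.56) in A549 and 1.01 (0.74 to 1.28) in HCC827, the smallest of the 9 in both lines. In A549 the interval of CXCL2 overlapped those of CXCL3, CXCL5, CXCL16 and CCL2. Transcripts of CXCL1, CXCL2 and CXCL3 share stretches of 50 identical bases, 4.57% of the stretches of CXCL1, 13.4% of those of CXCL2 and 6.01% of those of CXCL3. A minority of reads could thus be assigned to the wrong one or dropped.

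CXCL6, also an attractant of neutrophils, had 0 reads in both vector libraries, 5 in A549-myr-AKT1 and 1 in HCC827-myr-AKT1. A count of 0 allows up to 0.0895 CPM in A549-vector and 0.11 in HCC827-vector, taking 3 reads as the limit. Its mean was under the minimum in both lines and no fold is given, so transcripts of this gene were at the edge of detection in all 4 libraries.

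CXCL16 differed from the ELR genes in that HCC827-vector held more of it than A549-vector. It had 6.23 and 8.50 CPM in A549 and 15.2 and 68.6 in HCC827 (209, 214, 414 and 1120 reads). The log2 fold change was 0.43 (0.14 to 0.71) in A549 and 2.10 (1.93 to 2.26) in HCC827, where the interval reaches below the threshold. MED11 and ZMYND15 overlap CXCL16 on the other strand, and MED11 had 278 to 769 reads. ADAM10 and ADAM17, which shed CXCL16 from the membrane, had log2 fold changes of 0.05 and 0.31 in A549 and -0.29 and 0.32 in HCC827.

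The 3 CC chemokines had few reads in HCC827-vector. CCL20 had 5.10 and 11.9 CPM in A549 and 2.56 and 49.5 in HCC827 (171, 299, 70 and 808 reads). Its log2 fold change was 1.20 (0.92 to 1.48) in A549 and 4.19 (3.84 to 4.57) in HCC827, the highest of the 9 there. In HCC827 the interval of CCL20 overlapped those of CXCL3, CXCL5, CXCL8, CCL2 and CCL5. CCL2, the monocyte attractant, was mainly an A549 transcript, with 28.2 and 45.4 CPM (944 and 1143 reads) against 0.11 and 1.72 in HCC827 (3 and 28 reads). The log2 fold change of CCL2 was 0.67 (0.54 to 0.79) in A549 and 3.89 in HCC827, where 3 reads in the control give an interval from 2.19 to 6.25. CCL5 had the highest fold of the 9 in A549. It had 1.04 and 9.92 CPM there (35 and 250 reads) and 0.11 and 1.53 in HCC827 (3 and 25 reads). The log2 fold change of CCL5 was 3.23 (2.71 to 3.78) in A549 and 3.72 (2.01 to 6.09) in HCC827. Of the 50-base stretches of CCL5 transcripts, 15.6% also occur in transcripts of other genes, which leaves part of its reads uncertain. CCL2, CCL20 and CXCL8 had no such stretch.

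The fold in HCC827 was set beside that in A549 for each gene. For 8 of the 9 chemokines the whole counting interval in HCC827 lay above that in A549, against 29.2% of the 15704 genes compared in both lines, and for CCL5 the intervals overlapped. Of the 8, CCL2 reached the minimum mean in HCC827 only through the myr-AKT1 library. The HCC827 fold was the larger by 11.2 times for CXCL5, 9.31 times for CCL2, 8.53 times for CXCL3, 7.97 times for CCL20, 6.89 times for CXCL1, 3.73 times for CXCL8, 3.19 times for CXCL16, 1.53 times for CXCL2 and 1.41 times for CCL5. With 1 library per condition, these ratios could not be set against the variation between cultures.

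**Figure D3:**
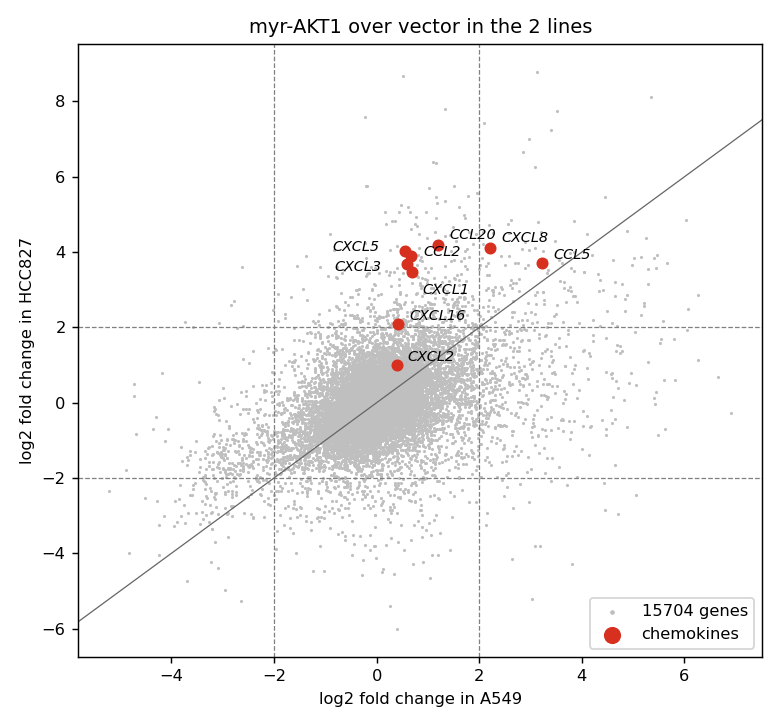
Log2 fold change, myr-AKT1 over vector, in A549 (x axis) and HCC827 (y axis) for 15704 genes (grey) and the 9 chemokines compared (red). Dashed lines mark 2 and -2, and the solid line marks equal change. All 9 chemokines lie above the solid line, with CXCL8 and CCL5 past 2 in both lines.

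The levels themselves show where the lines began and ended, on the scale of CPM, since the deposited values were normalized within a line. In vector cells, HCC827 was below A549 for 8 of the 9 genes, by a log2 ratio from -0.31 (-0.44 to -0.19) for CXCL8 to -8.00 (-10.28 to -6.45) for CCL2, and above it for CXCL16 at 1.28 (1.04 to 1.53). In myr-AKT1 cells, HCC827 was above A549 for 5 genes, CXCL1 at 0.71, CXCL5 at 1.07, CXCL8 at 1.64, CCL20 at 2.06 and CXCL16 at 3.01. It was below A549 for CXCL3 at -0.33, CXCL2 at -0.61, CCL5 at -2.70 and CCL2 at -4.73. CXCL1, CXCL5, CXCL8 and CCL20 therefore changed places between the lines, and CXCL16, CXCL2, CXCL3, CCL2 and CCL5 did not. Library preparation and culture of the lines cannot be told apart from the line in these ratios.

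Both lines were also taken as the 2 samples of each treatment, in a limma fit on log2(value + 1) that has a term for the line and 1 residual degree of freedom. Because limma shares variance across genes, its p-values rest on 7.77 degrees of freedom, 6.77 of them prior. Of the 9 chemokines kept, 2 passed an adjusted p of 0.05 upward, against 1.29% of the 19314 genes fitted, and none passed downward, against 1.73%, nor did any by edgeR or DESeq2 or with an unadjusted p under 0.05. CXCL8 had a log2 fold change of 3.16 (SE 0.417, adjusted p = 0.0133, limma with Benjamini-Hochberg adjustment) and was higher in both lines. CCL5 had 3.22 (SE 0.626, adjusted p = 0.0403, limma) and was also higher in both lines. The other seven had limma adjusted p values from 0.0807 for CCL20 to 0.349 for CXCL2. Before adjustment, 8 of the 9 were under 0.05 and higher, all but CXCL2, against 9.17% of genes. Genes whose folds differ between the lines, such as CXCL5 with a fitted log2 fold change of 2.29 (SE 0.676, limma adjusted p = 0.127), have a wide error in this fit. The calls of CXCL8 and CCL5 were lost with edgeR on median-of-ratios size factors over all 4 libraries (adjusted p = 0.0732 and 0.0821). On those 4-library factors limma kept CXCL8 (adjusted p = 0.0393) and lost CCL5 (adjusted p = 0.0631). With TMM, edgeR kept both (adjusted p = 0.0236 and 0.0441).

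The 6 ELR genes among the 10 lie within 359 kb on chromosome 4 (GRCh38, chr4:73740519-74099196, GENCODE release 44). It was thus possible to see whether their neighbours moved too. From CXCL8 at chr4:73740519-73743716 (plus strand) the order is CXCL6 at chr4:73836640-73849064 (plus strand), CXCL1 at chr4:73869393-73871308 (plus strand), CXCL5 at chr4:73995642-73998677 (minus strand), CXCL3 at chr4:74036589-74038807 (minus strand) and CXCL2 at chr4:74097040-74099196 (minus strand). The platelet chemokine genes PF4V1, PF4 and PPBP lie among them. PPBP had 0 reads in A549-vector and 128 in A549-myr-AKT1, and 0 reads in both HCC827 libraries. Its fold in A549 was 55.9 when 3 reads stand for the 0, and its counting interval begins at 44.8. PF4 had 23 and 51 reads in A549 and 0 in HCC827, and PF4V1 had 0 in all 4 libraries. Within the cluster, therefore, CXCL1, CXCL3, CXCL5 and CXCL8 were past the fold in HCC827, CXCL8 and PPBP in A549, and CXCL2 at the far end in neither. A lncRNA that overlaps CXCL5 on the other strand, ENSG00000287037, had 194 and 86 reads in A549 and 31 and 24 in HCC827, log2 fold changes of -0.78 and 0.29, so it did not move as CXCL5 did.

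**Figure D4:**
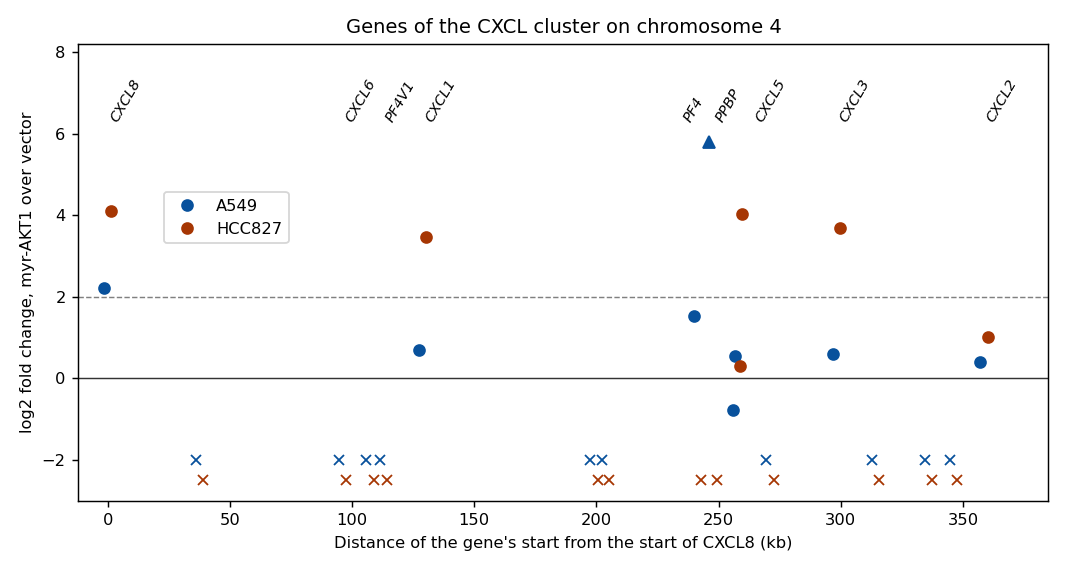
Log2 fold change, myr-AKT1 over vector, of the genes between CXCL8 and CXCL2 against the distance of their starts from that of CXCL8 in kilobases, in A549 (blue) and HCC827 (brown), the lines set slightly apart. The triangle is the lower bound for PPBP at 5.81, crosses along the bottom are genes with too few reads to compare, and unnamed points beside CXCL5 are the overlapping lncRNA. CXCL8 is past the dashed fold line in both lines and CXCL2 in neither.

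The remaining genes lie elsewhere, CXCL16 at chr17:4733533-4739928 (minus strand), CCL2 at chr17:34255274-34257208 (plus strand), CCL5 at chr17:35871491-35880793 (minus strand) and CCL20 at chr2:227805739-227817564 (plus strand).

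Of 34 other chemokine genes, 8 could be compared in A549 and 7 in HCC827, and 2 and 4 were past the fold upward, against 5.79% and 4.63% of all genes, with none downward, against 2.81% and 3.08%. Reads are given here for the vector and then the myr-AKT1 library. In A549 these were PPBP and CXCL12, which had 7 and 24 reads. In HCC827 they were CXCL17, a mucosal chemokine with 1 and 304 reads (log2 fold change 8.91, 6.42 to 14.22), CCL26 with 18 and 61 reads, CCL22 with 6 and 20, and CCL17 with 0 and 19. Of those past the fold in either line, all but CCL26 reached the minimum mean only through the myr-AKT1 library. For PPBP, CXCL17 and CCL17, meeting the minimum by itself put them past the fold. CX3CL1, a membrane-bound chemokine shed by the same proteases as CXCL16, had 10 and 20 reads in A549 and 521 and 1217 in HCC827, log2 fold changes of 1.39 and 1.89. None of the 34 passed the limma fit, in which 7 were kept, 3 of them higher with an unadjusted p under 0.05, against 9.17% of all genes. By edgeR with either normalization none of the 7 passed, and by DESeq2 CX3CL1 did.

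Several receptors of these chemokines had no reads or nearly none in these cells. CXCR2, CXCR6, CCR2 and CCR6 had 0 reads in all 4 libraries and CXCR1 had 1 read, in A549-myr-AKT1. CCR1, which CCL5 can bind, had 2 and 42 reads in HCC827, a log2 fold change of 5.06 (3.11 to 8.15). ACKR2, a decoy receptor that takes up inflammatory CC chemokines, had 8 and 21 reads in A549 and 5 and 20 in HCC827. ACKR3 had 4 and 96 reads in A549 and CXCR4, a CXCL12 receptor like it, 7 and 38. CCR7 had 26 and 22 reads in A549 and CCR10 21 and 9, log2 fold changes of 0.15 and -0.83. CCR3 had 7 and 15 reads in HCC827, a log2 fold change of 1.76. Of the 24 receptors and sheddases listed, 7 could be compared in A549 and 5 in HCC827. In each line 2 were past the fold upward, against 5.79% and 4.63% of all genes. None was past it downward, against 2.81% and 3.08%. Those past it upward were ACKR3 and CXCR4 in A549 and CCR1 and ACKR2 in HCC827. Each reached the minimum mean only through the myr-AKT1 library of its line. For all but CXCR4, meeting the minimum by itself put the gene past the fold.

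Of 30 inducers and brakes of chemokine genes, 27 could be compared in each line, with 3 past the fold upward in A549 and none downward, and 4 upward and 1 downward in HCC827. Of all genes, 5.79% and 2.81% were past it upward and downward in A549 and 4.63% and 3.08% in HCC827. IL1A and IL1B, the IL-1 cytokines that switch on many chemokine genes in epithelium, were past it in both lines. IL1B had 6 and 203 reads in A549 and 590 and 5630 in HCC827, log2 fold changes of 5.47 (4.32 to 6.93) and 3.92 (3.79 to 4.04). IL1A had 3 and 97 reads in A549 and 196 and 1787 in HCC827, log2 fold changes of 5.41 (3.82 to 7.71) and 3.85 (3.64 to 4.07). In A549, IL1A and IL1B reached the minimum mean only through the myr-AKT1 library, which by itself put IL1A past the fold there. TNFAIP3, an NF-κB target that dampens the pathway, had log2 fold changes of 1.27 and 2.13, and CEBPB, a transcription factor of inflammatory genes, 1.36 and 1.41. These 4 passed the limma fit, with adjusted p of 0.00658 for IL1B, 0.00959 for IL1A, 0.0335 for TNFAIP3 and 0.0370 for CEBPB, against 1.29% of all genes passing upward. With median-of-ratios size factors over all 4 libraries, IL1A and IL1B alone passed, by edgeR and by limma. With a pseudocount of 0.1 or without the line term none of the 4 did. TLR4 was past the fold in A549 (15 and 81 reads) and TNF in HCC827 (3 and 27 reads), and FOSL1, an AP-1 subunit, was past it downward in HCC827 at -3.02. TNF reached the minimum mean only through HCC827-myr-AKT1, which by itself put it past the fold. The NF-κB subunit genes NFKB1, NFKB2, RELA, RELB and REL stayed short of the fold, with log2 fold changes from -0.37 for REL in A549 to 1.03 for RELB in HCC827.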

How the data were processed

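RNA of the 4 cultures was sequenced by the authors with a stranded kit. The paper's Methods describe poly(A) selection and the labels removal of ribosomal RNA, and the steps and order used cannot be settled here. Reads were trimmed, mapped to hg38 with Bowtie2 and assigned to Ensembl genes with HTSeq, whose annotation release and treatment of strand are not given in the sources used here. The Methods name RPKM, but the signal the authors deposited is the count of each gene over a library-wide size factor, estimated within the pair of a line. Dividing by what 1 read is worth gave whole reads (within 0.001) for 100% of genes with reads in both myr-AKT1 libraries, for 26983 of 26984 in A549-vector and for 25879 of 25880 in HCC827-vector. The sums of recovered reads were 33530317 in A549-vector, 25190760 in A549-myr-AKT1, 27312465 in HCC827-vector and 16322183 in HCC827-myr-AKT1.

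Genes were named from GENCODE release 44, with 60261 of 60558 identifiers matched. Log2 fold changes within a line are ratios of deposited values with no pseudocount. Their 95% intervals are Clopper-Pearson intervals, those of the levels are exact Poisson intervals, and both cover counting error only. A library with 0 reads was set to 3 reads. Genes with a mean of at least 10 in the pair were compared. Levels are CPM, the share of recovered reads scaled to a common total, divided by merged exon length where genes are compared. The fit used limma on log2(value + 1) with a mean-variance trend, Benjamini-Hochberg adjustment and the genes kept by filterByExpr. The scripts were checked on simulated data. The members, gene lists and tests were chosen with earlier results of these data known. Genes named are the 10 chemokines and genes drawn from the listed chemokines and receptors with a mean of at least 10, inducers past the fold in both lines or passing the fit, and neighbours in the cluster. The other inducers named (TNF, TLR4, FOSL1 and the NF-κB subunit genes) and the receptors named at 0 were chosen after their values were seen. Listed genes that are not named enter the counts only. No RefSeq protein table was at hand, so proteins were not analysed here. Alternatives changed the scaling, pseudocount, filter, fold threshold, tool and line term. Fits were run with DESeq2 1.42.0, edgeR 4.0.16 and limma 3.58.1 in R 4.3.3, and tables and figures were made with matplotlib 3.10.9, scipy 1.17.1, pandas 2.3.3 and numpy 2.4.6 in Python 3.11.15.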

Additional observations from a re-analysis of the deposited data

Results flagged for a closer look

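None of the 9 chemokines compared in both lines moved in opposite directions in them. Of the 31 listed genes compared in both lines, 3 did with counting intervals clear of 0 in both, and in no case was that difference tested, because each line has 1 library per condition. ADAM10, a protease that sheds CXCL16, changed by 0.0462 in A549 and -0.29 in HCC827 on the log2 scale. IL1RAP, the shared subunit of IL-1 family receptors, had 0.71 in A549 and -0.67 in HCC827. TLR3, a sensor of double-stranded RNA, had 1.03 in A549 and -0.62 in HCC827.
CCL28 and RELA also differed in sign between the lines, but their counting intervals in A549 include 0.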

How the results depend on the processing

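The counts of chemokines past the fold stayed at 2 in A549 and 8 in HCC827 with at least 1 read in both libraries as the minimum, with a pseudocount of 1, and with TMM, total reads or 4-library size factors as the scaling. A mean of at least 50 left 6 in HCC827, without CCL2 and CCL5. A threshold of 1 gave 3 and 9, and asking for the whole counting interval past the threshold gave 2 and 7, without CXCL16. No log2 fold change of a chemokine changed sign under any scaling or pseudocount. Size factors over all 4 libraries shifted all genes in A549 by 0.102 on the log2 scale.

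For all genes in A549, the counts higher and lower were 531 and 327 at a minimum mean of 50, 1674 and 879 where 1 read in both libraries sufficed, 2823 and 1851 at a threshold of 1, and 569 and 268 by the counting interval. In HCC827 they were 354 and 243, 1393 and 879, 2451 and 2155, and 401 and 193 under the same settings.

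In the fit over both lines, edgeR with median-of-ratios size factors over all 4 libraries called 42 genes higher, 57 lower and 0 chemokines. With TMM, edgeR called 196, 228 and 2. DESeq2 called 616, 516 and 5, with 4868 adjusted p values not given. With no filter the fit called 1101 higher, 894 lower and 8 chemokines. A pseudocount of 0.1 and leaving out the line term each called 0, 0 and 0, with 3184 and 631 genes at an unadjusted p under 0.05. A pseudocount of 5 called 173, 268 and 1 chemokine, and limma with size factors over all 4 libraries called 60, 101 and 1. The chemokine was CXCL8 in both cases. The adjusted p of CXCL8 ran from 1.44e-24 with no filter to 1 without the line term, and that of CCL5 from 0.000142 to 1 under the same settings. The fit has 1 residual degree of freedom, and the cause of these shifts was not tested. The line term pairs each myr-AKT1 library with the vector library of its line, and no library could be left out within a line. Levels per kilobase moved by more than their counting interval for 23 values with the longest transcript as length, and 7 levels did so with 4-library size factors.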
